A study of Mus musculus with 87 samples.

Results

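Foxp1, Foxp2 and Foxp4 are 3 of the 26171 genes in the study's RNA-seq tables, and were read by symbol in all 13 comparisons of mouse cells with altered Suz12. They were chosen by the measured log2 fold changes of Foxp1, which was far lower in the Suz12 knock-out of embryonic stem cells (ESC) but not in that of neuronal precursors (NP). Those knock-out comparisons with wild type are therefore described here without a test, though their calls enter the count of calls over all tables. A comparison of other NP wild-type samples with the same NP knock-out samples is given with adjusted p for Foxp2 and Foxp4. Foxp3, the remaining family member, had at most 11 reads in any library.

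Foxp proteins are forkhead transcription factors that bind DNA as dimers, pair through a leucine zipper with themselves or with each other, and mostly repress their targets together with Ctbp and NuRD corepressors. Foxp1 has an alternative exon whose use in ESC gives a form that binds other DNA sites and is reported to act on pluripotency genes, and Mbnl proteins repress the use of that exon. Foxp2 and Foxp4 are known from the developing nervous system, where they repress the cadherin gene Cdh2 as neurons leave the precursor zone. Suz12 is a core part of PRC2, the Polycomb enzyme that places the repressive histone mark H3K27me3 at silenced genes. The tables give 1 value per gene, so the Foxp1 forms were not told apart.

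Polyadenylated RNA was sequenced from 129-B13 ESC kept in serum with LIF and from NP made from ESC through embryoid bodies, with retinoic acid on day 4 and harvest on day 8. The 18 ESC samples were wild type (WT, 3), CSex4 (wild type in which exon 4 of Suz12 is constitutive, 2), Deltaex4 (exon 4 of Suz12 deleted, 2), KO (full Suz12 knock-out, 3), KO-L and KO-S (the knock-out rescued with the long or the short Suz12 isoform, 2 each), and KO-L3D and KO-S3D (such rescues from the Rosa26 locus that carry the 3D mutation at position 196, 2 each). The 14 NP samples were 4 of WT, in 2 pairs used in different tables, and 2 each of the long and short rescues (KO-L, KO-S), KO, CSex4 and Deltaex4. The labels do not say how many clones, cultures or differentiations the samples of a group stand for, so tests measure only the spread between samples, which may be technical. The 7 ESC comparisons all use the same WT libraries. In NP, 3 comparisons use the first WT pair, and the 4 that involve KO use the same KO libraries.

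The whole reads of each library were worked out from the authors' means, as described in the processing section, and libraries of a group are called a, b and c by falling total. Levels are given as scaled RPM, a read rate like RPM in which the reads are divided by a median-of-ratios factor over all 32 libraries rather than by the library total. Totals lay between 25026501 and 32702533 reads in ESC and between 23570194 and 47201666 in NP. Suz12, the targeted gene, had levels from 46.1 to 94.99 in ESC KO and from 166 to 324 in ESC WT, and from 37.7 to 39.4 in NP KO and from 98.0 to 182 in NP WT. The libraries labelled KO-L3D had 60.8 and 94.1, inside the range of ESC KO, while those labelled KO-S3D had 177 and 358. Libraries of 1 group differed from each other by 8.22 to 108 times counting noise (chi-square per degree of freedom over genes), except NP CSex4 a and b at 2.08, so the spread in NP CSex4 is nearly that of counting. Library a of the first NP WT pair stood apart, with a summed level of 7 neural markers of 359 against 1286 to 1407 in the other NP WT libraries.

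The 2 deposited lists of ChIP-seq regions from ESC place the Foxp1 and Foxp2 genes, but not Foxp4, next to regions of H3K27me3 and of Suz12. On GRCm38 (mm10), Foxp1 spans chr6:98925342-99522746. A region of the H3K27me3 list (chr6:99518030-99523443) and a region of the Suz12 list (chr6:99519205-99523646) cover the most upstream of its 3 listed RefSeq starts, at position 99520993. That start lies inside the gene model, whose upper end, at 99522746, is covered by both regions as well. The other 2 listed Foxp1 starts lie 251515 and 489732 bp from the nearest H3K27me3 region. At Foxp2 (chr6:14901349-15441977), the regions chr6:14896411-14904862 of the H3K27me3 list and chr6:14897669-14902838 of the Suz12 list cover the lower-coordinate end of the gene. Foxp4 (chr17:47867133-47924632) has no region within 10000 bp of its start, and the nearest H3K27me3 region to the gene is 30671 bp away. Among 21900 protein-coding genes, 19.5% had a region of the H3K27me3 list and 10.3% one of the Suz12 list within 2500 bp of a start. The authors' value was 3.27e-08 for the H3K27me3 region at Foxp1 (4797th smallest of 6882) and 7.22e-41 for that at Foxp2 (1052nd). In the Suz12 list it was 1.16e-36 at Foxp1 (352nd smallest of 2865) and 1.81e-23 at Foxp2 (712th). The headers state neither which group was compared with WT nor in which direction a region differed, so the lists show position only. The lists name no build either, and mm10 was taken from the submitters' processing notes.

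**Figure D1:**
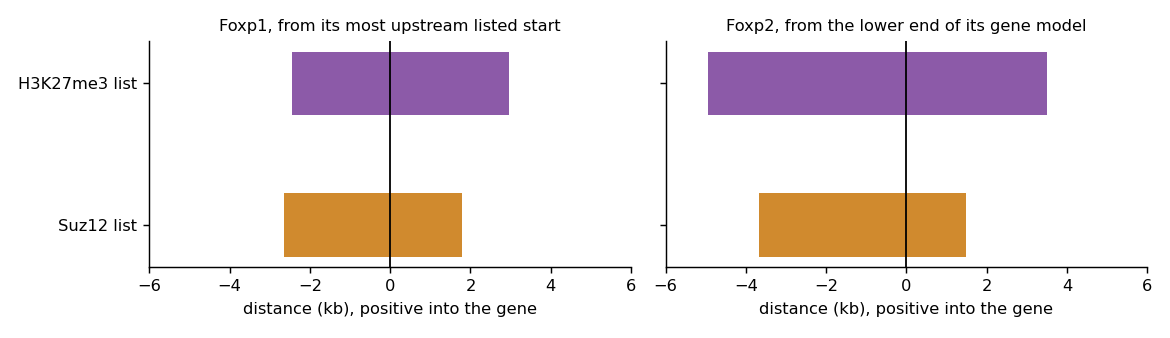
Regions of the authors' H3K27me3 and Suz12 lists, drawn by distance in kb from the most upstream listed Foxp1 start (left) and from the lower-coordinate end of Foxp2 (right), with positive distances running into the gene. In both genes a region of each list spans position 0.

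The 250 bases before 3 of the listed starts are shown because they separate a start inside such regions from starts outside them. Sequences are those of RefSeq for GRCm38.p6, 5′ to 3′ on the minus strand, from which both genes are read, and CpG pairs are in capitals. The first lies in chr6:99520994-99521243 (inside regions of both lists), the second in chr6:99028299-99028548 (a downstream Foxp1 start, outside both), and the third in chr17:47924633-47924882.
Foxp1 upstream start: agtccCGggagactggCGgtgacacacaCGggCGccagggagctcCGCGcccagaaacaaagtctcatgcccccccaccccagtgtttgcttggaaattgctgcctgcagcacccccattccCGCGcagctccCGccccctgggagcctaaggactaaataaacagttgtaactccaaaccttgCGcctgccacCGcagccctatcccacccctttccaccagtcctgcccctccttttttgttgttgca
Foxp1 downstream start: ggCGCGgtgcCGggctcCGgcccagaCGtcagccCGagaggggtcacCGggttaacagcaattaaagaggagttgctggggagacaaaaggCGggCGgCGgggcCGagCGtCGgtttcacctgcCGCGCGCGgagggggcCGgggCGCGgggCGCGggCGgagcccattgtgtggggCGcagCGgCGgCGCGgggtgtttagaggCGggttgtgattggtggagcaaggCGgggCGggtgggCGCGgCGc
Foxp4 start: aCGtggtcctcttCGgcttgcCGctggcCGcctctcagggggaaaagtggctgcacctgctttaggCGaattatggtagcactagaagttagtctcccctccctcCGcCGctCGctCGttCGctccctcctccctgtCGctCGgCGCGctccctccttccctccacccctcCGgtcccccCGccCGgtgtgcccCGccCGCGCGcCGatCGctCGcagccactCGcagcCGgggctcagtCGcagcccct
The covered Foxp1 stretch holds 11 CpG and 60.8% G and C, and 35.6% of 32851 listed promoters hold at least as many CpG. The uncovered Foxp1 stretch holds 34 CpG (3.53% of promoters hold at least as many) and that of Foxp4 holds 27 (8.56%). The remaining listed Foxp1 start (chr6:99266516-99266765, not shown), also outside both lists, has 3 CpG and 45.2% G and C, so the covered stretch lies between the uncovered ones. The forkhead core TGTTTAC, searched on both strands, is in none of them and in 3.17% of all listed promoters. Its variants TGTTTGC and TGTTTAT each occur once in the covered Foxp1 stretch, TGTTTAT also once in the stretch not shown, and 4.30% and 4.16% of all promoters hold them. These letter matches do not show binding.

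In ESC, Foxp1 was high in WT and in most mutant groups, and low in KO, in the libraries labelled KO-L3D and in 1 of the 2 libraries labelled KO-S3D. In WT, its level was 122, 88.3 and 101 scaled RPM in libraries a, b and c. In KO it was 15.4, 13.4 and 17.7, so every KO library lay below every WT library and the WT mean was 6.69 times the KO mean. Of all genes tested in that table, 18.3% were called and 7.27% were called lower. The authors' deposited table gives a log2 fold change of -2.74 ± 0.19 (SE) for this comparison, which chose Foxp1. There it ranked 2nd in size among the 1027 genes called lower with a mean at or above the median, just behind Ina (-2.80 ± 0.22) and before Naprt (-2.64 ± 0.23), in the authors' deposited table. The WT libraries are shared by all ESC tables, so the other differences from WT below are not independent of this one. In bulk RNA, fewer cells that express Foxp1 and less Foxp1 RNA per cell cannot be told apart.

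Both unmutated rescues had Foxp1 levels far above KO. KO-L had levels of 69.6 and 117, KO-S had 91.3 and 83.5, and the means were 6.01 and 5.63 times that of KO. Against WT, the authors' deposited tables give -0.30 ± 0.33 for KO-L (adjusted p 0.949; 2.23% of genes called) and -0.32 ± 0.28 for KO-S (adjusted p 0.5998; 7.91% called), so neither was called. KO-S and KO-L did not differ detectably from each other, with a log2 difference of -0.05 and a 95% interval from -1.06 to 0.96 (limma, adjusted p 0.951; 26.7% of genes called), which leaves room for a change of about 1 on the log2 scale either way.

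The libraries labelled KO-L3D had Foxp1 levels of 16.6 and 18.4, which overlap the KO range. Compared with KO-L, which shares no library with the comparisons that chose Foxp1, the level was lower by a log2 difference of -2.34 ± 0.47 (95% interval -3.35 to -1.32, limma, adjusted p 0.00224), with both libraries below both of KO-L. In that comparison 39% of the 13635 genes tested were called, 21.2% as lower, so a call by itself is common there. With any of the 4 libraries left out, the difference stayed between -2.71 and -1.96 and the adjusted p between 0.00674 and 0.0263. Against WT, the authors' deposited table gives -2.70 ± 0.31 (adjusted p 5.00e-16), in a table with 18.3% of genes called and 10.1% called lower. Foxp1 was 13th in size among the 1258 genes called lower there with a mean at or above the median. Since Suz12 in these libraries was at the level of KO, the label of a rescue is not borne out by Suz12 mRNA. The unmutated rescues had Suz12 levels of 121 and 136 (KO-L) and of 147 and 145 (KO-S), above every KO library but under every ESC WT library.

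The libraries labelled KO-S3D did not match each other. Library a had a Foxp1 level of 20.0, close to KO, and library b had 86.9, just under the lowest WT library. The authors' deposited table gives -1.40 ± 0.46 against WT (adjusted p 0.0613), which was not called, in a table with 3.23% of genes called. The unpaired limma fit gives -1.29 and calls it (adjusted p 0.0396), while the value is -2.33 (adjusted p 0.00119) without library b and -0.24 (adjusted p 0.612) without library a. Against KO-S the difference was -1.05 ± 0.47 (95% interval -2.06 to -0.04, limma, adjusted p 0.145; 15.5% of genes called, 7.99% lower). The size of the difference and its call in the unpaired fit thus rest on library a.

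Markers of other cell types differed between the ESC libraries as well. The summed level of the 3 mesoderm markers was 22.9 to 41.2 in KO, 85.5 to 280 in KO-L3D, 221 in KO-S3D a and 12.8 in KO-S3D b, against 4.59 to 7.75 in WT. The sum of the 3 trophoblast markers was 84.5 to 278 in KO, 109 to 662 in KO-L3D, 889 in KO-S3D a and 23.2 in KO-S3D b, against 80.04 to 150 in WT. Against WT, the authors' deposited tables call 2 of 3 mesoderm and 2 of 3 trophoblast markers higher in KO-L3D, where 8.22% of all genes were called higher. They call 3 of 3 mesoderm and 2 of 3 trophoblast markers higher both in KO (11% of all genes) and in KO-L (1.46%). Groups in which Foxp1 was not low had raised sums too: the mesoderm sum was 20.6 to 36.0 in KO-L, and the trophoblast sum was 300 to 455 in KO-L and 412 to 1199 in CSex4. The sum of the 3 mesenchyme markers was 83.5 to 88.0 in KO-L, 2.41 to 2.92 in KO-L3D and 0.389 to 2.15 in KO-S3D, against 7.71 to 16.2 in WT. The sum of the 6 pluripotent markers stayed at 3397 or more in KO, KO-L3D and KO-S3D, against 2873 to 3626 in WT, and all 6 had more than 3 reads in each of these groups. The part of these cells in the Foxp1 levels was not tested.

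The exon 4 lines showed no called Foxp1 difference in ESC. Foxp1 levels were 135 and 107 in CSex4 and 89.7 and 54.9 in Deltaex4. In the authors' deposited tables the log2 fold changes against WT are 0.11 ± 0.31 (adjusted p 0.971; 2.41% of genes called) and -0.64 ± 0.44 (adjusted p 0.99998; 0% called, with 135 genes at an unadjusted p under 0.05). Deltaex4 b was lower than every WT library and Deltaex4 a lay within the WT range. CSex4 and Deltaex4 differed by 0.77 on the log2 scale, with a 95% interval from -0.24 to 1.79 (limma, adjusted p 0.260; 15% of genes called).

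**Figure D2:**
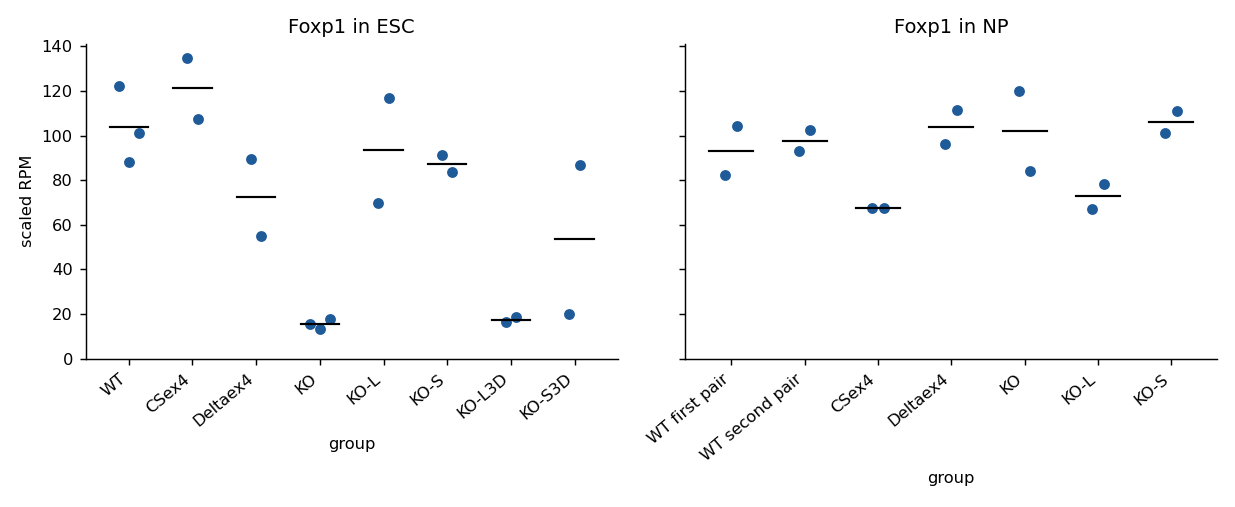
Foxp1 level (scaled RPM, y axis) in each library (points) with the group mean (line), for ESC groups (left) and NP groups (right). The 3 ESC KO libraries (13.4 to 17.7), both KO-L3D libraries (16.6 and 18.4) and 1 KO-S3D library (20.0) lie apart from the rest, while NP libraries lie between 67.2 and 120.

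In NP, Foxp1 was expressed in every group, and no NP library was as low as the ESC KO libraries. It had levels of 82.2 and 104 in the first WT pair, 93.2 and 102 in the second, and 120 and 84.0 in KO, so that 1 KO library lay within the WT range and 1 above it. The KO mean was 102 in NP and 15.5 in ESC. In the authors' deposited tables the log2 fold change is 0.11 ± 0.33 for KO against the first WT pair and -0.03 ± 0.28 for the second WT pair against KO. NP WT and ESC WT differed by -0.11 on the log2 scale (95% interval -0.74 to 0.52, limma, adjusted p 0.748), in a comparison where 71.2% of 14362 genes were called.

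Smaller Foxp1 differences were found between NP groups. CSex4 had levels of 67.5 and 67.6 and KO-L had 67.2 and 78.5, the lowest groups in NP. Deltaex4 had 96.1 and 112 and KO-S had 101 and 111. Against the first WT pair, the authors' deposited tables give -0.44 ± 0.31 for CSex4 (adjusted p 0.590) and 0.16 ± 0.31 for Deltaex4 (adjusted p 0.99996). CSex4 was lower than Deltaex4 by -0.61 ± 0.18 (limma, adjusted p 0.0287; 27.2% of genes called), and the adjusted p was between 0.0429 and 0.164 when 1 library was left out. It was 0.130 without CSex4 a and 0.128 without CSex4 b, each of which leaves 1 of these near-identical libraries, 0.164 without Deltaex4 b, and 0.0604 with library totals. KO-S was higher than KO-L by 0.54 ± 0.18 (limma, adjusted p 0.0447; 25.8% called), a call lost without any of the 4 libraries (adjusted p 0.0832 to 0.247). The same comparison of KO-S with KO-L did not differ detectably between NP and ESC (difference of differences 0.59, 95% interval -0.58 to 1.76, limma, adjusted p 0.463; 24.8% of genes called). Against KO, whose libraries took part in choosing Foxp1, the authors' deposited tables give -0.48 ± 0.23 for KO-L and 0.09 ± 0.18 for KO-S.

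Foxp2 was nearly silent in ESC and expressed in NP, and in NP it was lower in CSex4, KO and both rescues than in WT and Deltaex4. No ESC library had more than 21 Foxp2 reads. The 3 WT libraries had 7, 6 and 1, KO had 13, 21 and 9, and both KO-S libraries, both KO-S3D libraries and KO-L3D b had 0, which allows a level of up to 0.130. The authors' deposited tables have no called Foxp2 difference in ESC and no adjusted p in 5 of 7 comparisons. At this depth no ESC difference can be read. In NP WT, Foxp2 had 933 to 1452 reads per library, and its mean level was 33.8 ± 8.14 (SD, n = 4) against 0.169 ± 0.114 (SD, n = 3) in ESC WT.

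The Foxp2 level in NP was 25.8 and 44.4 in the first WT pair, 29.5 and 35.4 in the second, 28.7 and 38.3 in Deltaex4, and 10.4 and 10.3 in CSex4. The CSex4 libraries lay below every WT and Deltaex4 library. The authors' deposited table gives -1.71 ± 0.37 for CSex4 against WT (adjusted p 2.55e-04), in a table with 5.53% of genes called and 1.45% called lower. Foxp2 was 12th in size among the 164 genes called lower there with a mean at or above the median. With all 4 WT libraries the difference was -1.63 (limma, adjusted p 0.00353). Without the first-pair library that stood apart it was -2.05 (limma, adjusted p 0.00176), without the other library of that pair -1.28 (adjusted p 0.0717), and with only 1 of the near-identical CSex4 libraries the limma adjusted p was 0.154 or 0.141. Deltaex4 did not differ detectably from WT in the authors' deposited table (-0.04 ± 0.35, adjusted p 0.99996; 0.0809% called). CSex4 was lower than Deltaex4 by -1.64 ± 0.31 (95% interval -2.33 to -0.94, limma, adjusted p 0.00714), with adjusted p values from 0.0122 to 0.0608 when 1 library was left out and over 0.05 without CSex4 a, CSex4 b or Deltaex4 b.

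Foxp2 levels were 10.1 and 6.92 in NP KO. They were 8.97 and 14.7 with the long isoform put back (KO-L) and 15.03 and 20.5 with the short (KO-S). The authors' deposited table gives -2.03 ± 0.39 for KO against the first WT pair, a comparison used in choosing the genes, where 21.4% of genes were called and 9.85% were called lower. The second WT pair was not part of it, and was higher than the same KO libraries by 1.96 ± 0.35 in the authors' deposited table (adjusted p 3.33e-07; 32.9% of genes called, 15.6% higher). Foxp2 was 332nd in size among the 1676 genes called higher there with a mean at or above the median. KO-S was higher than KO by 1.08 ± 0.29 (adjusted p 9.18e-04; 34.5% called, 16.4% higher) in the authors' deposited table, and its libraries lay between those of KO and those of WT. By size it was 408th among the 1742 genes called higher there with a mean at or above the median. This call was lost in the limma fit without KO b (0.77, adjusted p 0.155) and without KO-S b (0.81, adjusted p 0.177). KO-L gave 0.45 ± 0.39 against KO in the authors' deposited table (adjusted p 0.462; 24.7% called), and its libraries overlap those of KO. The rescues differed from each other by 0.59 (95% interval -0.11 to 1.29, limma, adjusted p 0.190), so that the step from KO to KO-S was not shown to exceed that from KO to KO-L.

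Most libraries with high Foxp2 also had high neural markers. The summed level of the 7 neural markers was 1274 to 1358 in Deltaex4, 403 to 407 in CSex4, 97.7 to 112 in KO, 348 to 463 in KO-L, and KO-S libraries had 454 to 510. Hes5 had at most 3 reads in NP KO, and the other 6 markers had more. For CSex4 against WT, the authors call 2 of 7 neural markers lower and none higher, where 1.45% of all genes were called lower. Against KO, they call 7 of 7 higher in KO-S (16.4% of all genes). In KO-L they call 6 higher and 1 lower (10.9% and 13.8% of all genes). The first-pair WT library that stood apart had a neural sum of 359, below that of CSex4, and a Foxp2 level of 25.8, above both CSex4 libraries. The part of neural cell content in the Foxp2 levels was not tested. The CSex4 libraries also had the highest sum of the 6 pluripotent markers in NP, 1097 and 1122, against 182 to 387 in WT.

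**Figure D3:**
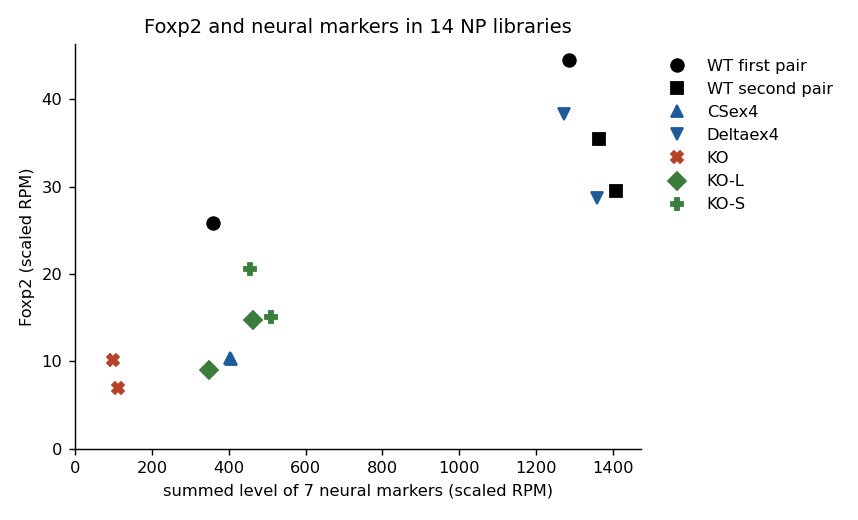
Foxp2 level (y axis) against the summed level of 7 neural markers (x axis), both in scaled RPM, in each of the 14 NP libraries, with symbols by group. WT, except 1 first-pair library, and Deltaex4 lie at the upper right, and the 2 CSex4 libraries (10.4 and 10.3) coincide.

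Foxp4 was expressed in both cell types, and was highest in NP KO-S. In NP its level was 271 and 182 in the first WT pair, 196 and 171 in the second, 157 and 170 in KO, 167 and 199 in KO-L, and 358 and 390 in KO-S. Both KO-S libraries lay above every other NP library. In the authors' deposited table KO-S was higher than KO by 1.199 ± 0.155 (adjusted p 2.93e-13; 34.5% of genes called, 16.4% higher). Foxp4 was 327th in size among the 1742 genes called higher there with a mean at or above the median. In the limma fit the value was between 1.12 and 1.25 when any library was left out. KO-L had 0.15 ± 0.19 against KO (adjusted p 0.658) in the authors' deposited table. KO-S was higher than KO-L by 1.03 ± 0.23 (95% interval 0.53 to 1.53, limma, adjusted p 0.00961; 12.5% of genes called higher). The adjusted p was 0.0880 without KO-L a and 0.0687 without KO-S b, with differences of 0.90 and 0.97. KO-S had the mean level 374 and the 4 WT libraries 205 ± 45.0 (SD, n = 4), a ratio of 1.82 that no table tests.

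Other marker sums also differed between these NP groups. The trophoblast sum was 571 to 678 in KO-S, 770 to 877 in KO, 173 to 196 in KO-L and 390 to 392 in CSex4, against 142 to 327 in WT. The endoderm sum was 153 to 205 in KO-S, 270 to 507 in KO, 124 to 184 in KO-L and 75.6 to 78.9 in CSex4, against 58.9 to 214 in WT. The mesenchyme sum was 593 to 655 in KO-L, while KO-S had 107 to 112 and WT 36.9 to 205. The mesoderm sum was 37.4 to 39.0 in CSex4, 7.02 to 8.96 in KO-S, 11.5 to 29.8 in KO and 24.4 to 28.8 in KO-L. In WT it was 2.35 to 9.46. For CSex4 against WT, 2 of 2 mesoderm markers tested were called higher by the authors, where 4.08% of all genes were. The part of these cells in the Foxp levels was not tested.

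CSex4 had the lowest Foxp4 levels in NP, 111 and 118, below every other NP library. The authors' deposited table gives -0.95 ± 0.31 against WT (adjusted p 0.0466; 5.53% of genes called, 1.45% lower). This is close to the threshold, and the call was lost when p-values were adjusted over all genes (0.0636). Foxp4 was 160th in size among the 164 genes called lower there with a mean at or above the median. With all 4 WT libraries the limma value was -0.81 (adjusted p 0.0136). Without the first-pair library that stood apart it was -0.67 (adjusted p 0.0499), and with 1 of the near-identical CSex4 libraries the adjusted p was 0.192 or 0.166. Deltaex4 had 133 and 213, with -0.41 ± 0.39 against WT in the authors' deposited table (adjusted p 0.99996). CSex4 and Deltaex4 differed by -0.55 (95% interval -1.05 to -0.05, limma, adjusted p 0.0913), and by -0.89 (adjusted p 0.0205) without Deltaex4 a. KO had -0.45 ± 0.33 against the first WT pair, and the second WT pair had 0.17 ± 0.26 against KO (adjusted p 0.670), in the authors' deposited tables.

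In ESC, Foxp4 levels were 69.8, 56.3 and 67.3 in WT and 64.1, 55.4 and 51.4 in KO, with a log2 fold change of -0.18 ± 0.21 in the authors' deposited table. CSex4 (61.5 and 78.4), Deltaex4 (62.2 and 82.6), KO-L (55.7 and 77.2) and KO-S (74.3 and 73.2) lay within or near the WT range. The libraries labelled KO-L3D had 69.7 and 103 and those labelled KO-S3D 91.7 and 166. In KO-S3D both libraries exceeded every WT library, and library b, in which Foxp1 was not low, was the higher. The authors' deposited table gives 0.86 ± 0.38 against WT for KO-S3D and does not call it (adjusted p 0.240), while the unpaired limma fit gives 0.94 and calls it (adjusted p 0.0131), and without library b it gives 0.51 (adjusted p 0.154). For KO-L3D the authors' deposited table gives 0.28 ± 0.31 (adjusted p 0.604). Against the matching unmutated rescues the differences were 0.74 (95% interval 0.16 to 1.31, limma, adjusted p 0.0762) for KO-S3D and 0.37 (-0.20 to 0.95, adjusted p 0.289) for KO-L3D. Without KO-S3D a the first was 1.17 (adjusted p 0.0149), and without KO-S3D b it was 0.31 (adjusted p 0.486).

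**Figure D4:**
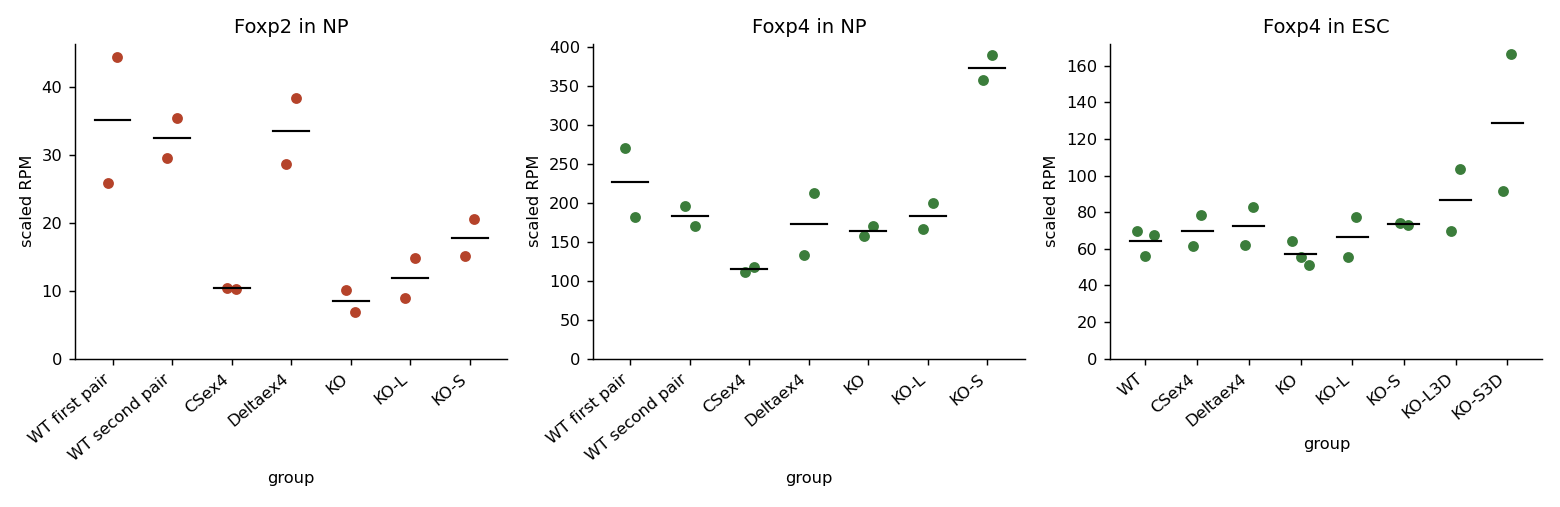
Level (scaled RPM, y axis) of Foxp2 in NP, Foxp4 in NP and Foxp4 in ESC in each library (points) with the group mean (line). Foxp2 is lowest in KO and CSex4, and Foxp4 is highest in KO-S (358 and 390) and lowest in CSex4 (111 and 118) in NP.

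Between the cell types, Foxp4 was higher in NP WT than in ESC WT by 1.64 ± 0.20 on the log2 scale (95% interval 1.23 to 2.06, limma, adjusted p 2.94e-07; 36.2% of genes called higher), with all 4 NP WT libraries above all 3 ESC WT libraries. The effect of CSex4 on Foxp4 was more negative in NP than in ESC by -1.07 ± 0.35 (limma, adjusted p 0.0449; 16.4% called), with adjusted p values from 0.0320 to 0.214 when 1 library was left out. It was over 0.05 without ESC CSex4 b, ESC WT b, ESC WT c, NP CSex4 a, NP CSex4 b or the first-pair NP WT library that stood apart. For Foxp1 the CSex4 effects differed by -0.68 (95% interval -1.79 to 0.44, limma, adjusted p 0.397). For the Deltaex4 effects no difference between cell types was called for Foxp1 (0.71, 95% interval -0.41 to 1.83) or Foxp4 (-0.56, -1.30 to 0.18), in a limma comparison where 0 of 14362 genes were called. No such difference is given for Foxp2, since its ESC reads are too few.

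**Figure D5:**
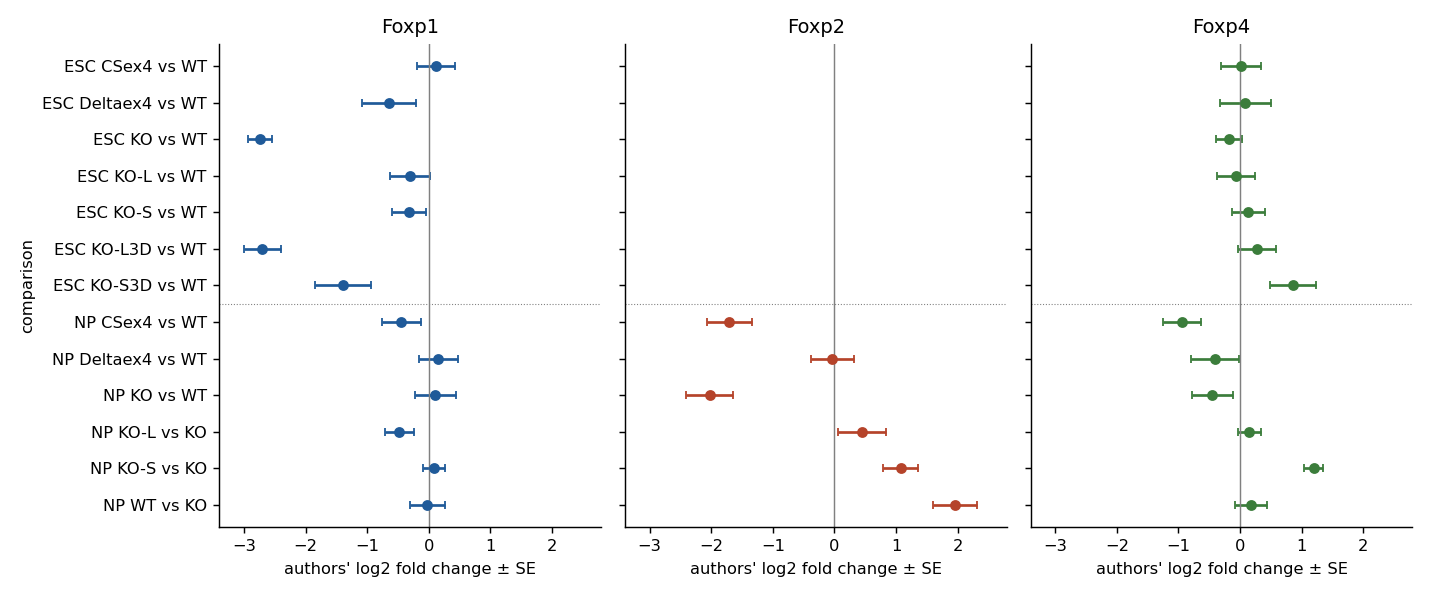
Log2 fold change with its SE (x axis) of Foxp1, Foxp2 and Foxp4 in the authors' deposited tables, for the 7 ESC and 6 NP comparisons (y axis); Foxp2 in ESC is left out because at most 21 reads support it. Foxp1 is far below 0 in ESC KO and KO-L3D, and Foxp2 and Foxp4 lie below 0 in NP CSex4 and above 0 in NP KO-S vs KO.

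Over all 13 tables the authors' adjusted p called 8 of 39 member values, where the share of all genes called ran from 0% to 34.5% per table, so the count by itself does not set the members apart. For Foxp1 these were 2 falls in ESC (1 of them in the comparison that chose it) and none in NP. There 1 of 6 had an unadjusted p under 0.05, that of KO-L against KO, whose KO libraries took part in choosing Foxp1. Foxp2 had 2 higher and 2 lower calls in NP (1 of the lower in the NP KO comparison used in choosing the genes), and Foxp4 had 1 of each in NP and none in ESC.

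Of the 16 partners and corepressors of Foxp proteins, 13 were tested in ESC KO-L3D against WT, with 4 lower. Of all genes tested there, 10.1% were called lower. The median log2 fold change of the list was -0.40 beside -0.02 over all genes tested. The authors' deposited table gives -1.45 ± 0.28 for the corepressor Ctbp2 (adjusted p 7.39e-06), -0.90 ± 0.28 for the NuRD subunit Mta1 (adjusted p 0.0132), -1.33 ± 0.28 for Zmym2 (adjusted p 8.62e-05) and -1.36 ± 0.47 for the chromatin organiser Satb1 (adjusted p 0.0252). In NP KO-S against KO, where 16.4% of all genes were called higher and 18% lower, 14 were tested. Of these, 8 were higher and 2 lower, and the median was 0.44 beside 0.0026. There the authors' deposited table gives 2.77 ± 0.19 for the nuclear receptor Nr2f1 (adjusted p 1.26e-47), 1.24 ± 0.15 for Mta1 (adjusted p 1.95e-14) and 0.70 ± 0.17 for Ctbp2 (adjusted p 2.87e-04). In NP KO-L against KO, 2 of 15 were higher and 2 lower, where 10.9% and 13.8% of all genes were called so. In ESC KO against WT, 3 of 15 were higher and 3 lower, beside 11% and 7.27% of all genes. In NP CSex4 against WT none of 14 was called, with 4 at an unadjusted p under 0.05.

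Reported Foxp targets moved in both directions. Cdh2, which encodes N-cadherin, had log2 fold changes against WT in the authors' deposited tables of 2.38 ± 0.53 in ESC CSex4 (adjusted p 0.00152), 1.58 ± 0.48 in the long rescue KO-L (adjusted p 0.0484), -2.42 ± 0.57 in the short rescue KO-S (adjusted p 8.90e-04), -2.31 ± 0.49 in KO-L3D (adjusted p 7.98e-05) and -3.04 ± 0.65 in KO-S3D (adjusted p 4.95e-04). KO-L and KO-S, whose Foxp1 levels overlap, had Cdh2 on opposite sides of WT. In ESC KO, where Foxp1 was also low, Cdh2 was not called against WT. The share of all genes called in the same direction was 1.72% in CSex4, 1.46% in KO-L, 3.63% in KO-S, 10.1% in KO-L3D and 1.18% in KO-S3D. In NP CSex4, where Foxp2 and Foxp4 were both called lower than in WT, Cdh2 was lower as well, by -1.13 ± 0.38 (adjusted p 0.0489) in the authors' deposited table. When KO-S was set against KO in NP, where Foxp2 and Foxp4 were higher, it was higher by 2.50 ± 0.18 (adjusted p 2.64e-42) in the authors' deposited table. Plaur, the urokinase receptor gene, was lower there by -1.92 ± 0.22 (adjusted p 9.55e-17). Of the 8 targets, 7 were tested in KO-S against KO, with 1 higher and 2 lower, and a median of 0.026 beside 0.0026 over all genes. In NP KO-L against KO neither Foxp2 nor Foxp4 was called. Cdh2 was higher there by 2.25 ± 0.22 (adjusted p 1.53e-23) in the authors' deposited table. Plaur was again lower, by -2.18 ± 0.25 (adjusted p 4.85e-17). The part of Foxp levels, or of the differing cell content of these groups, in the target values was not tested.

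The list of genes reported to respond to the ESC form of Foxp1 held Nanog, Gdf3, Pou5f1 and Nr5a2, all linked to the pluripotent state. In ESC KO-L3D, where Foxp1 was low, 1 of 4 was called, Nanog, and it was higher (1.10 ± 0.27, adjusted p 9.19e-04, authors' deposited table). The median of the 4 was 0.45 beside -0.02 over all genes. In NP CSex4 against WT all 4 were higher in the authors' deposited table: Nanog by 2.79 ± 0.35, Gdf3 by 2.63 ± 0.43, Pou5f1 by 2.50 ± 0.37 and Nr5a2 by 1.88 ± 0.41, with adjusted p from 5.54e-12 to 2.41e-04, where 4.08% of all genes were called higher. Nanog and Pou5f1 are also among the pluripotent markers, whose sum was raised in these libraries. Of the Mbnl splicing factors, none of 3 was called in any ESC comparison, where at most 2 had an unadjusted p under 0.05. In NP CSex4 against WT, the authors' deposited table has Mbnl3 higher by 1.49 ± 0.34 (adjusted p 7.80e-04). In NP KO against WT 2 of 3 were higher, where 11.6% of genes were called higher. In NP KO-L against KO, where 13.8% of genes were called lower, all 3 were lower, with -1.91 ± 0.26 for Mbnl3, -1.41 ± 0.20 for Mbnl2 and -0.78 ± 0.28 for Mbnl1 (adjusted p 1.20e-11, 8.85e-11 and 0.0244) in the authors' deposited table. For KO-S against KO, Mbnl3 (-1.66 ± 0.22) and Mbnl2 (-0.71 ± 0.17) were lower in the authors' deposited table.

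The genes most like each member were ranked by Pearson's r of the authors' log2 fold changes over the 13 comparisons, among 10238 genes with a mean of at least 100 in all tables. The comparisons share libraries, so r is a description. For Foxp1 they were Kat14 (0.92), Slc38a1 (0.90) and Oxsr1 (0.90). Their log2 fold changes for ESC KO against WT were -0.73, -0.999 and -0.67 in the authors' deposited table, smaller than that of Foxp1. For Foxp2, whose own ESC values rest on few reads, they were Hdgfl3 (0.96), Rab8b (0.94) and Macir (0.92), and for Foxp4 Zfp768, Dnttip1 and Vps72 (0.83 each).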

How the data were processed

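Per the submitters' processing notes, Bowtie, TopHat, DESeq2 and DiffBind were used with builds mm10 and dm3, without versions or roles. The authors' RNA-seq tables hold, per the file headers, a mean signal (reads divided by size factors), log2 fold changes with standard errors, and p-values with adjusted p-values. The deposited region lists hold 1 score per region, at a false discovery rate of 5%, and the headers do not say whether it is a p-value; 54.8% and 62.2% of regions lie within 2500 bp of a listed GRCm38 start. A gene was called at the authors' adjusted p under 0.05.

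Each mean is a sum of whole reads, each multiplied by a fixed worth per library, and is printed to 15 digits. The reads of all libraries of a cell type were solved jointly with a lattice method. Whole reads were found for 100% of 22130 genes in ESC and 22456 in NP, and gave 32 distinct libraries, whose group follows from the tables that hold them. Linked libraries were equal in 100% of genes and others in at most 17.5%. On simulated data 1497 of 1500 ESC and all 1500 NP genes were right, and all 1462 and 1463 below a mean of 10000. Labelled replicate numbers of these libraries are unknown. Tables named paired were fitted by the authors; ESC WT b had no partner in 6 of 7 ESC tables, so their effects rest mostly on WT a and c.

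Limma 3.58.1 (R 4.3.3) was run on log2 of the level plus 0.5, for genes with a mean level of at least 1, with Benjamini-Hochberg adjustment over all of them, for groups the authors did not compare and without the replicate block. When a library left out leaves an arm with 1 sample, that sample is assumed to vary like the other groups. The members and gene lists were chosen with earlier results of these data known. Named list genes were called in a comparison and had a mean of at least 100 there, at most 6 per list and comparison by adjusted p; not all are described, and a gene of the partner list is not reported here. The limma comparisons were added after seeing the data. ChIP-seq signal per sample is not analysed here.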

Additional observations from a re-analysis of the deposited data

Results flagged for a closer look

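The effect of CSex4 on Foxp4, relative to WT of the same cell type, differed between the cell types: NP minus ESC was -1.07 on the log2 scale (limma, adjusted p 0.0449). Both NP CSex4 libraries lay below every NP WT library, while in ESC 1 CSex4 library lay within the WT range and 1 above it. As given in the report, 6 of the 9 fits that left out 1 library lost this call. It was 1 of 6 such differences of effects tested. The 4 NP WT libraries were also tested for a value far from the others, once per member, and none was found. With 4 values such a test can find little, so it does not clear any library. The first-pair library with the low neural sum had a Foxp4 level of 271, against 171 to 196 in the other NP WT libraries.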

How the results depend on the processing

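The number of member values called was 8 with the authors' adjusted p and 10 with no replicate block (limma). In that fit, Foxp1 (-1.29) and Foxp4 (0.94) in ESC KO-S3D vs WT became calls, and no other call changed. The fit differs from that of the authors in method and scaling as well, so the part of the block cannot be told apart. No check of the pairing was possible because the replicate numbers of the recovered libraries are unknown. Foxp4 in ESC KO-S3D vs WT was also called with library totals (1.11) and without a filter (0.94), and Foxp4 in ESC KO-L3D vs WT with library totals (0.68). With all 4 NP WT libraries, Foxp1 in NP CSex4 vs WT (-0.49) was called. Foxp4 in NP CSex4 vs WT was not called at an adjusted p of 0.01 or when adjusted over every gene (-0.95 in both), nor when centred on the median gene (-0.89). The number of members with an H3K27me3 region was 1, Foxp2, when only regions under 1e-10 were kept. The causes were not tested.

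With 1 library left out in turn (limma), Foxp1 values that changed their call ranged from -2.33 to -0.24 in ESC KO-S3D vs WT and -0.62 to -0.28 in NP CSex4 vs WT. Those of Foxp2 ranged from -2.05 to -1.28 in NP CSex4 vs WT and 0.77 to 1.28 in NP KO-S vs KO. Those of Foxp4 ranged from 0.51 to 1.37 in ESC KO-S3D vs WT and -1.24 to -0.67 in NP CSex4 vs WT. Foxp1 in NP KO-L vs KO ranged from -0.72 to -0.21 and Foxp4 in NP KO vs WT from -0.72 to -0.15. These are descriptions without a test, since the KO libraries took part in choosing the genes. No called value changed sign under any setting run. Depth limits Foxp2 in ESC, where at most 21 reads were found.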
